A study of Mus musculus with 27 samples.

Results

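The 5 genes that lost nearly all of their chromatin-associated RNA when macrophages met lipopolysaccharide (LPS) and are described here are Slco2b1, Fam214a, Syngr1, Eef2k and Aatk. They are 5 of the 45070 genes in the deposited table, and all 5 were among the 13901 genes with enough signal to be tested. The members were chosen by the size of their fall over the LPS course, so their LPS values are a description and carry no test. The IL-4 samples had no part in that choice, and IL-4 changes were tested, although the 3 untreated samples served both courses. Choosing genes by a fall from these untreated samples also favours falls in the IL-4 contrasts with untreated. The steps between neighbouring times of IL-4 use no untreated sample in the contrast.

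The cells were bone marrow-derived macrophages (BMDMs), primary macrophages grown in culture from the marrow of wild-type male C57/BL6 mice aged 6 to 8 weeks. Every culture, the untreated one included, first received DMSO for 1 h, the vehicle of the kinase inhibitors studied elsewhere in the project. Cells were then left untreated or given LPS at 10 ng/ml or IL-4 at 10 ng/ml for 0.5, 1, 2 or 4 h, with 3 replicates in each of the 9 groups and 27 samples in all. The labels give no untreated group for each time. In comparisons with untreated, effects of a stimulus and of time in culture therefore cannot be told apart. The labels do not say whether replicates came from separate animals or cultures, so the p-values measure the spread between these samples, which may be technical.

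LPS, a bacterial cell wall component, is sensed by Toll-like receptor 4, which drives the inflammatory program of the macrophage. IL-4 is a cytokine that acts through STAT6 and drives a different program, linked to defence against parasites and to the resolution of inflammation. Chromatin-associated RNA is the fraction still bound to chromatin, rich in unspliced and growing transcripts, so it follows ongoing transcription more closely than total RNA does. Alongside its induced genes, LPS is known to shut off part of the transcription of resting macrophages. The 5 genes come from unrelated families. Slco2b1 encodes a plasma membrane transporter (OATP2B1) that takes up organic anions such as steroid conjugates and many drugs. Syngr1 encodes synaptogyrin 1, a multi-pass membrane protein best known from synaptic vesicles. Fam214a encodes a protein related to fly atossa. Eef2k encodes the kinase that phosphorylates elongation factor 2 and slows translation, and it belongs to the small class of alpha-kinases. Aatk encodes apoptosis-associated tyrosine kinase, a membrane-anchored lemur kinase linked to Cdk5 in neurons.

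The values are the authors' normalised read counts per gene, scaled between libraries on genes taken as invariant and rounded to whole numbers. They summed to 2469768 to 2790981 in the 15 samples without LPS and to 3571492 to 4058199 in the 12 LPS samples, and the reads behind each library are not given by such values. The summed level of 9 macrophage markers, led by Adgre1, was 10049 to 11163 in untreated samples. It was 11325 to 19852 with LPS and 10985 to 14065 with IL-4. Single markers moved both ways. By limma's F test 4 of the 9 fell and 5 rose with LPS, against 54.7% and 32.9% of all tested genes. With IL-4 5 fell and 2 rose, against 2910 and 2696 of the 13901 tested genes. Cd14 was low in untreated cells (24.7) and at 4 h of IL-4 (7.67), and rose to 358 at 0.5 h of LPS. None of the 9 macrophage markers was at 0 in all samples. Sums over 5 markers each reached at most 8 for B cells, 12 for T and NK cells and 28 for neutrophils and their precursors. The sum of 5 fibroblast and endothelial markers lay between 48 and 93 in untreated samples, between 34 and 225 with LPS and between 60 and 309 with IL-4, and that of 5 erythroid markers, mostly Alas2, between 74 and 95, 20 and 92, and 109 and 379. For 5 dendritic cell markers, led by Zbtb46, the sums were 6 to 9, 5 to 100 and 11 to 24. The part of such cells in the results was not tested, and in bulk samples fewer cells of a type and less RNA per cell cannot be told apart. The induction of Tnf by LPS (from a mean of 7 to 2145 at 0.5 h) and of Pdcd1lg2 by IL-4 (from 1 to 582 at 4 h) went with the labels.

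The genes lie on 4 chromosomes of the GRCm38 (mm10) assembly. Slco2b1 (chr7:99657804-99711340, minus strand) and Eef2k (chr7:120842831-120907219, plus strand) are on the same chromosome. Fam214a is at chr9:74952880-75032468 (plus), Syngr1 at chr15:80091334-80119501 (plus) and Aatk at chr11:120007313-120047152 (minus). Their spans, from 28.2 kb for Syngr1 to 79.6 kb for Fam214a, lay around the median of 50.5 kb of the 4554 genes whose untreated mean was 100 or more. Per kb of span, the untreated levels ran from 2.25 ± 0.0323 normalised read counts for Eef2k through 3.77 ± 0.714 for Aatk, 6.44 ± 1.2 for Slco2b1 and 7.48 ± 0.0824 for Fam214a to 10.0 ± 2.14 for Syngr1 (SD, n = 3). On this scale Slco2b1 and Fam214a, neighbours in the order, lay within 1 SD of each other, while the other neighbours were further apart than their SDs.

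Because the 5 genes fall together under LPS, the start of each is shown, from 100 bases before to 20 bases after the start site at the table's 5′ end (RefSeq, GRCm38.p6). Capitals mark matches to any of 6 short motifs, named below, which were searched on both strands of the window from 250 bases before to 50 after the start.
Slco2b1, chr7:99711321-99711440, minus strand: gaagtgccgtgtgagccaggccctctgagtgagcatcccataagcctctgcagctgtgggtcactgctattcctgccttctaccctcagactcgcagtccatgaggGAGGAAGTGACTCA
Fam214a, chr9:74952780-74952899, plus strand: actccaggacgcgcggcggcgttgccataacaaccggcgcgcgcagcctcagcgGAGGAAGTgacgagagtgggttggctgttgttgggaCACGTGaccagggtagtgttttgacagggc
Syngr1, chr15:80091234-80091353, plus strand: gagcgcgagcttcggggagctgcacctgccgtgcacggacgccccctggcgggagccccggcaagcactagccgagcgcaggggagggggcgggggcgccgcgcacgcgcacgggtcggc
Eef2k, chr7:120842731-120842850, plus strand: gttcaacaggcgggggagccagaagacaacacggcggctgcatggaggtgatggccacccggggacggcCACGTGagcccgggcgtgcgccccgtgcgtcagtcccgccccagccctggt
Aatk, chr11:120047133-120047252, minus strand: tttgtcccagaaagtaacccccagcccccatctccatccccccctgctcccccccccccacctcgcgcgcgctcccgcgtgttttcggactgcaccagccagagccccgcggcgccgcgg

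PU.1 defines the macrophage lineage, and its letters GAGGAAGT were found in Slco2b1 and Fam214a and in 3.15% of 17100 protein-coding promoter windows of the same length. In Slco2b1 they run into a match to the AP-1 letters TGANTCA, with which they share 1 base, and such a match was present in 7.05% of windows. The E-box letters CACGTG occurred in Fam214a and Eef2k and in 7.91% of windows. None of the 5 windows held TTCNNNGAA, the STAT letters (7.83% of windows). None held the TATA box letters TATAAA (13.5%) either, or GGANTTTCC for NF-kB (1.25%), and Syngr1 and Aatk held none of the 6 motifs. A match is a run of letters and not a measured site. The windows of 300 bases differed in makeup: Slco2b1 held 5 CG pairs and 57% G and C, Eef2k 18 pairs, Fam214a 21, Aatk 25 and Syngr1 38 pairs and 72.3%, where the median over all windows was 13 pairs and 56.3%.

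Slco2b1, the uptake transporter, had lost nearly all of its RNA after 1 h. Untreated samples held 419, 309 and 306 normalised read counts in replicates 1, 2 and 3 (345 ± 64.4, SD, n = 3). With LPS the replicates held 156, 127 and 181 after 0.5 h, then 7, 7 and 12 after 1 h, 5, 3 and 3 after 2 h, and 1, 0 and 0 after 4 h. Thus 44.9% of the untreated mean was left after 0.5 h and 2.51% after 1 h, and the drop between these times was the steepest single step of the gene (-4.03 ± 0.32 on the log2 scale, SE of the fit). At 4 h every library was at or under 3 normalised read counts, taken here as the floor for the group, so the level was at least 115-fold lower than in untreated cells. The fitted change of -8.08 at 4 h ranked 1 among the falls of all tested genes, but at so low a level it depends on the pseudocount of 1 added before the log: with 8 in its place it was -5.39, behind the -5.91 of Fam214a.

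Fam214a, the atossa relative, had lost less than Slco2b1 at 0.5 and 1 h and was as scarce from 2 h on. Untreated samples held 596, 588 and 601 normalised read counts (595 ± 6.56), a narrow spread. LPS samples held 511, 364 and 377 after 0.5 h, 60, 52 and 39 after 1 h, 5, 1 and 6 after 2 h, and 2 in each library after 4 h. At 0.5 h 70.1% was left, the largest share among the 5 genes, against 8.46% at 1 h and 0.672% at 2 h. The drop came in 2 steps of like size, -3.03 ± 0.35 from 0.5 to 1 h and -3.53 ± 0.35 from 1 to 2 h. At 4 h the level was at least 198-fold lower, and the fall ranked 3.

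Syngr1, the synaptogyrin, had lost nearly all of its RNA by 2 h and stayed low at 4 h. Untreated samples held 346, 226 and 276 normalised read counts (283 ± 60.3), and LPS samples 129, 94 and 100 after 0.5 h, 19, 21 and 21 after 1 h, 0, 1 and 2 after 2 h, and 1, 5 and 3 after 4 h. The share left was 38.1% at 0.5 h and 7.19% at 1 h. At 2 h, with every library at or under the floor, the level was at least 94.2-fold lower than in untreated cells, and at 4 h 1.06% was left. The values of 2 and 4 h overlapped. The fall at 2 h ranked 5.

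Eef2k, the elongation factor 2 kinase, fell in 2 stages with a pause between them. Untreated samples held 147, 144 and 143 normalised read counts (145 ± 2.08). LPS samples held 59, 34 and 53 after 0.5 h, 42, 18 and 13 after 1 h, 41, 33 and 26 after 2 h, and 3, 0 and 3 after 4 h. The share left was 33.6% at 0.5 h, the lowest of the 5 genes at that time, then 16.8% at 1 h and 23.0% at 2 h, where the replicates overlapped with those of 1 h. The gene was at least 48.2-fold lower at 4 h. Its change from 2 to 4 h, -3.74 ± 0.48, was the largest of its steps and came when the other 4 genes were already at 2.22% of untreated or less. Its rank among falls was 36.

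Aatk, the lemur kinase, declined slowly for 1 h and then dropped. Untreated samples held 183, 137 and 131 normalised read counts (150 ± 28.4). LPS samples held 100, 88 and 82 after 0.5 h, 65, 34 and 35 after 1 h, 5, 5 and 0 after 2 h, and 2, 4 and 2 after 4 h. The shares left were 59.9%, 29.7%, 2.22% and 1.77% at the 4 times. The step from 1 to 2 h was -3.72 ± 0.53, and the values at 2 and 4 h overlapped. The fall at 2 h ranked 62.

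**Figure D1:**
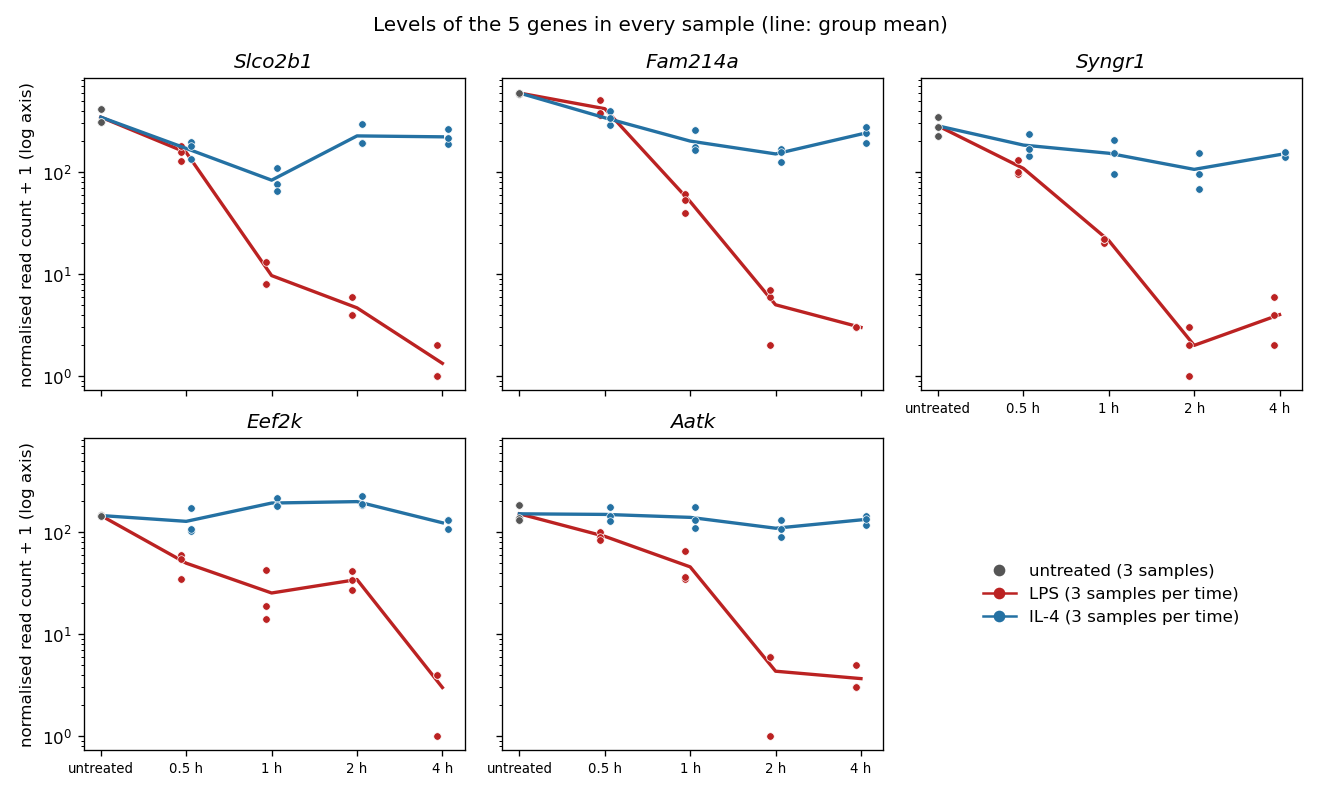
Normalised read count + 1 on a log axis in every sample of the 5 genes, against untreated cells and 4 times of LPS or IL-4. Points are samples and lines join group means. All LPS points lie under the untreated points of the same gene, from 0.5 h on, while the IL-4 means stay at or above 82.3 normalised read counts.

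In each of the 5 genes the LPS samples did not overlap the untreated ones at any of the 4 times. Choosing the members by their fall over this course favours such a separation. The share of all tested genes that separate in this way was not computed, for LPS or for IL-4. Over all tested genes, 54.7% passed the LPS F test with a fall as the largest change and 32.9% with a rise. The median log2 changes of the 5 genes over the 4 times were -1.15, -3.56, -6.22 and -6.26 (-6.15 at 2 h and -6.26 at 4 h with genes at the floor set at their bound), while that of all tested genes lay between -0.30 and -0.24. Of the 4554 genes whose untreated mean was 100 or more, 306 (6.72%) were at 10% or less of that level after 4 h of LPS and 47 (1.03%) at 2% or less, and the median gene kept 82.2%. Of the 306 genes, 4, 52, 135 and 115 first went under 10% at the 4 times in turn. Slco2b1, Fam214a and Syngr1 were among those of 1 h, Aatk among those of 2 h and Eef2k among those of 4 h. Rises and falls at so low a level rest on a few reads, so the order of the genes at 2 and 4 h cannot be read beyond these limits.

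**Figure D2:**
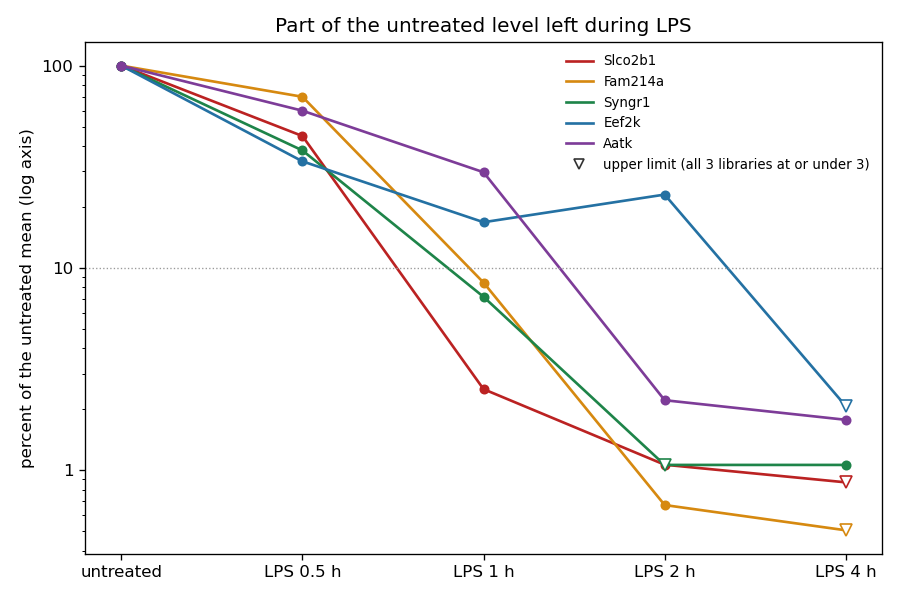
Percent of the untreated mean left in each gene at each time of LPS, on a log axis. Circles are group means, open triangles are upper limits where all 3 libraries were at or under 3 normalised read counts, and the dotted line marks 10%. Slco2b1, Fam214a and Syngr1 cross the line by 1 h, Aatk by 2 h and Eef2k by 4 h.

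The IL-4 course asked whether the same genes change under a stimulus of another kind. By limma's F test over the 4 times with Benjamini-Hochberg adjustment over 13901 genes, 4 of the 5 passed 0.05, against 40.3% of all tested genes. Slco2b1, Fam214a and Syngr1 fell, as did 20.9% of tested genes, Eef2k had a rise as its largest change, and Aatk did not pass (adjusted p = 0.264). Same-numbered samples deviated together in the IL-4 course, and once the fit held the replicate number as a block, Aatk passed too (adjusted p = 0.00737), so that 5 of 5 passed against 53.3% of tested genes. The calls of Syngr1 and Eef2k were lost without replicate 2 (adjusted p = 0.187 and 0.173), without replicate 3 (0.169 and 0.149) and with replicates 2 and 3 averaged as 1 sample (0.145 and 0.143). That of Syngr1 was also lost with no filter on low values (0.0751) and that of Eef2k in one fit of all 27 samples (0.427). Aatk stood at 0.583 with replicates 2 and 3 averaged.

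Slco2b1 dipped with IL-4 and came back part of the way. IL-4 samples held 197, 133 and 179 normalised read counts at 0.5 h, 108, 75 and 64 after 1 h, 292, 193 and 191 after 2 h, and 261, 188 and 213 after 4 h, each group under the lowest untreated sample. The log2 change was -1.02 ± 0.23 at 0.5 h (SE; limma adjusted p = 0.00635) and -2.07 ± 0.23 at 1 h (adjusted p = 1.39e-05), where 23.9% of the untreated mean was left. Of all tested genes 8.14% were called lower at 0.5 h and 9.83% at 1 h. The step down from 0.5 to 1 h was -1.05 (adjusted p = 0.0129) and the step up from 1 to 2 h was 1.45 (adjusted p = 0.00118), directions called in 3.61% and 4.03% of tested genes. At 2 h 65.4% was left (-0.62, adjusted p = 0.0561, with the block 0.000418) and at 4 h 64.0% (-0.64, adjusted p = 0.0539, with the block 0.000364). The call at 0.5 h was lost without replicate 2 (adjusted p = 0.139) or replicate 3 (0.0750), and so were both steps (0.178 and 0.313 for the fall, 0.0669 and 0.0838 for the rise). The 0.5 h call was lost with replicates 2 and 3 averaged as well (0.0864). The call at 1 h was kept in all 12 alternatives.

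Fam214a fell through 2 h of IL-4. Its samples held 392, 291 and 336 normalised read counts at 0.5 h, 259, 177 and 165 after 1 h, 124, 169 and 156 after 2 h, and 190, 240 and 274 after 4 h, all under the untreated samples. The shares left were 57.1%, 33.7%, 25.2% and 39.4%, and all 4 contrasts with untreated passed (adjusted p = 0.00594, 1.84e-05, 1.87e-06 and 7.64e-05 by limma). The background of lower calls was 13.2% at 2 h and 12.5% at 4 h. The log2 change was largest at 2 h, at -2.00 ± 0.18. The step from 0.5 to 1 h was -0.78 (adjusted p = 0.0183, lost without replicate 2 at 0.265 or replicate 3 at 0.314), that from 1 to 2 h was -0.40 (0.215), and that from 2 to 4 h was 0.64 (adjusted p = 0.0551, with the block 0.0288), where 2.4% of tested genes were called higher. The call at 0.5 h was lost without replicate 2 (0.174) or replicate 3 (0.106), with both averaged (0.119) and in one fit of all 27 samples (0.0860).

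Syngr1 fell as well, with a wider spread between replicates. Its samples held 237, 143 and 169 normalised read counts at 0.5 h, 207, 154 and 95 after 1 h, 154, 94 and 68 after 2 h, and 148, 139 and 155 after 4 h. The samples of 0.5 h overlapped with the untreated ones and those of the later times did not. At 0.5 h the log2 change was -0.63 ± 0.31 (limma adjusted p = 0.200, with the block 0.0337). The contrasts of 1, 2 and 4 h gave -0.94, -1.47 and -0.92 (adjusted p = 0.0440, 0.00253 and 0.0421). At 2 h 37.3% was left, and no step between neighbouring times passed. Without replicate 2 none of these contrasts passed (0.192, 0.0568 and 0.198 at 1, 2 and 4 h), and without replicate 3 those of 1 h (0.315) and 4 h (0.114) did not. The calls at 1 and 4 h were also lost with no filter (0.140 and 0.130), in one fit of all 27 samples (0.0979 and 0.0923) and with replicates 2 and 3 averaged (0.203 and 0.122).

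Eef2k went the other way for part of the IL-4 course. Its samples held 172, 102 and 106 normalised read counts at 0.5 h, 214, 182 and 180 after 1 h, 183, 224 and 188 after 2 h, and 106, 130 and 132 after 4 h. The samples of 1 and 2 h all lay above the untreated ones and those of 4 h below, but the untreated ones spanned only 143 to 147. The change at 4 h was -0.24 ± 0.17 and did not pass (adjusted p = 0.344 by limma). The level reached 133% of untreated at 1 h (0.40 ± 0.17, adjusted p = 0.119 by limma) and 137% at 2 h (0.45 ± 0.17, adjusted p = 0.0679, with the block 0.0459), where 11.1% and 14.3% of tested genes were called higher. The steps were called: 0.63 from 0.5 to 1 h (adjusted p = 0.0369) and -0.69 from 2 to 4 h (adjusted p = 0.0324). The background of these calls was 4.21% higher for the former and 3.09% lower for the latter. Both steps were lost without replicate 2 (adjusted p = 0.418 and 0.331) or replicate 3 (0.381 and 0.303). At the same 2 h of LPS the gene stood at 23.0% of untreated.

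Aatk differed little from untreated with IL-4. Its IL-4 samples held 175, 142 and 128 normalised read counts at 0.5 h, 176, 130 and 110 after 1 h, 131, 106 and 88 after 2 h, and 143, 117 and 133 after 4 h. They overlapped with the untreated samples at 0.5, 1 and 4 h. At 2 h the highest sample only equalled the lowest untreated one, at 131. The largest change was -0.47 ± 0.19 at 2 h (adjusted p = 0.0930 by limma, with the block 0.00212), where 72.1% was left. With the block its step from 1 to 2 h, -0.34, was called as well (adjusted p = 0.0321, without it 0.354), a direction called in 5.37% of tested genes without the block.

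**Figure D3:**
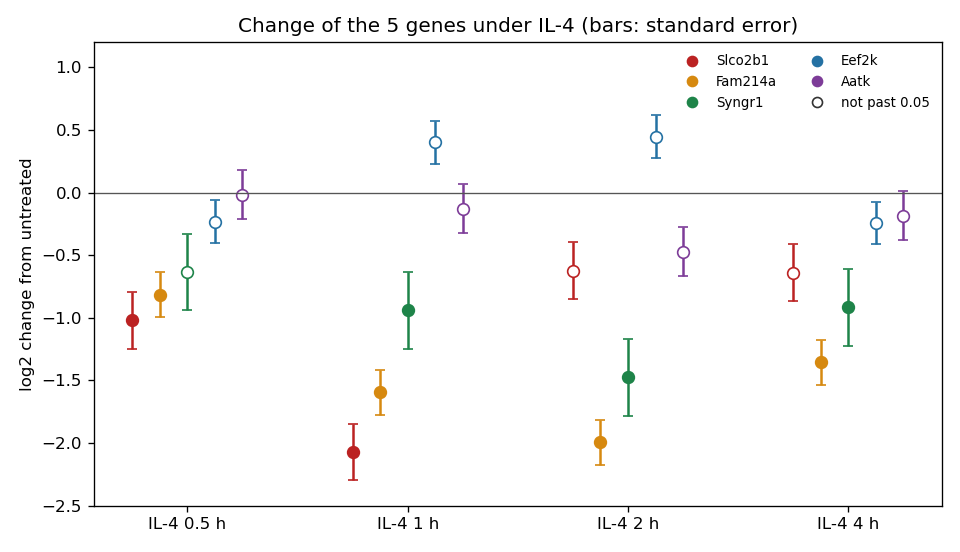
Log2 change of each gene from untreated cells at 4 times of IL-4, with the standard error of the fit as bars. Filled points passed 0.05 after adjustment over all tested genes. The points of Slco2b1, Fam214a and Syngr1 lie below 0, those of Eef2k lie above it at 1 and 2 h, and those of Aatk lie between -0.47 and -0.02.

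Replicate 1 was often the highest sample. Among the groups whose mean was 50 or more it was highest in 6 of 6 for Aatk, 5 of 6 for Slco2b1, 5 of 6 for Syngr1, 4 of 7 for Fam214a and 3 of 5 for Eef2k. Over the 3 fits that each left out 1 replicate number, the LPS change at 4 h lay between -8.27 and -7.99 for Slco2b1 and between -7.64 and -7.63 for Fam214a. The largest LPS changes of the other 3 moved more, from -7.26 to -6.68 for Syngr1 without replicate 1, from -5.85 to -5.19 for Eef2k without replicate 2 and from -5.50 to -4.73 for Aatk without replicate 3.

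The patterns were compared over the 8 stimulated groups by the root mean square difference of their log2 changes from untreated, with 8662 genes as candidates. Fam214a was the nearest of all candidates to Slco2b1 (0.889), and Syngr1 the nearest to Fam214a (0.711). Ranks depend on which gene is the reference. Slco2b1 ranked 7 for Fam214a, and for Syngr1 Fam214a ranked 5 and Slco2b1 28. Eef2k was further from these 3 genes (2.04 to 2.26), which ranked 2874 to 3850 among its candidates. In the other direction Eef2k ranked 210 for Slco2b1, 333 for Fam214a and 395 for Syngr1. Outside the 5 genes, Rcbtb2, which encodes a protein with RCC1 and BTB domains, came within the closest 3 for Slco2b1 (1.07), Fam214a (0.715) and Syngr1 (0.638). The mitogen-activated protein kinase kinase gene Map2k6 was close to Slco2b1 (0.937), as was Lpin1, a phosphatidate phosphatase (1.02). Arhgap18, a GTPase-activating protein (0.737), and the co-stimulatory receptor gene Cd28 (0.823) were close to Fam214a. The transcription factor gene Lyl1 (0.664) and the non-coding Gm46162 (0.665) were close to Syngr1. Eef2k was nearest to Lrmp (0.558), Plekhh2 (0.592) and Scamp5 (0.631). The scavenger receptor gene Cd163 was nearest to Aatk (0.291), before Gm52877 (0.345), which overlaps Cd163 and may share its reads, and Nbeal2 (0.416). Cd163 held 387 normalised read counts in untreated cells and 251, 88.7, 13 and 9.33 in the LPS groups. Likeness here is a description over group means, and the LPS groups and the choice of the 5 genes weigh on it.

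There were 7 other annotated genes that overlap the 5, and whether counting used strand is not stated, so their reads cannot be told apart from those of their partner. Gm34280, a non-coding gene on the other strand that shares 20116 bases with the 5′ part of Slco2b1, stood at 90.3 normalised read counts before stimulation and at 22.7, 1.33, 0 and 0 with LPS. With IL-4 it held 29, 23, 61 and 61.3, dipping and returning as Slco2b1 did. Gm15774 lies wholly within Eef2k on the other strand over 23872 bases. It held 66 in untreated cells, 21, 12.3, 14 and 1 with LPS, and 50.3, 93, 91.3 and 53.3 with IL-4, the course of Eef2k. Gm51280, Gm31134 and Gm36449 reached at most 7 normalised read counts in any sample.

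Aatk hosts microRNAs. In all 3 protein-coding GENCODE transcripts of the gene, the mature sequences of Mir338 and the antisense Mir3065 lie in an intron, so the primary Aatk transcript includes the Mir338 hairpin. Mir3065, on the plus strand, is not part of that transcript. The mature sequences are shown as small RNAs within the span of a gene that LPS turned off, with the seed (bases 2 to 8) in capitals (RefSeq, GRCm38.p6).
mmu-miR-338-3p, chr11:120014781-120014802, minus strand: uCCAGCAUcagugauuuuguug
mmu-miR-338-5p, chr11:120014816-120014837, minus strand: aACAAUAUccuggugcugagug
mmu-miR-3065-5p, chr11:120014780-120014801, plus strand: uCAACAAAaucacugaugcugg
The 3 seeds differ from one another. Both microRNA genes were listed at 0 in all 27 samples, and the libraries were not made for small RNAs, so these data hold no level for the mature forms.

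The genes next to the 5 were compared to see whether the fall extended along the chromosome. They were the nearest tested protein-coding genes on either side that do not overlap, 10 in all, and were not picked for their LPS values. By the LPS F test 8 of the 10 passed with a fall as the largest change, against 54.7% of all tested genes, 1 passed with a rise, against 32.9%, and 1 did not pass, with a median largest change of -1.47 against -1.0 over all tested genes. Arrb1, the beta-arrestin 1 gene 51032 bases from Slco2b1, fell from 713 ± 45.8 normalised read counts to 310, 47 and 13 at 1, 2 and 4 h of LPS (-5.69 ± 0.18, adjusted p = 7.38e-13 by limma) after 791 at 0.5 h. With IL-4 it fell by 1.34 at 1 h (adjusted p = 4.13e-05 by the F test) and stood at 500 at 2 h. Neu3, on the other side of Slco2b1, did not pass (adjusted p = 0.0712) but did at equal totals (0.0428) and with the replicate block (0.0343). Near Aatk, Cep131 fell from 18.7 normalised read counts to 1, with every library of 4 h under the floor, which makes it at least 6.22-fold lower. Baiap2, 530 bases away, fell by 1.86 at 4 h of LPS, after 352 at 1 h against 284 in untreated cells. With IL-4 Baiap2 rose by 1.5. Tab1, near Syngr1 and an adaptor of the TAK1 kinase, fell by 2.39 at 1 h. The ribosomal protein gene Rpl3 on the other side of Syngr1 fell by 1.56 at 0.5 h, from 115 to 38.3, and was back at 90.3 at 2 h. Arpp19, 5145 bases from Fam214a, fell by 1.37. On the other side the nearest tested gene was Rsl24d1, 1829546 bases away, which rose by 1.91, a direction that turned when libraries were set to equal totals. Beside Eef2k, Polr3e fell by 1.02 at 0.5 h, from 56.7 to 27.7 normalised read counts, but held 74.3 at 1 h. Mosmo held 208 normalised read counts without stimulus, 91.7 after 0.5 h and 469 after 2 h of LPS, so its direction depended on the time and turned with a median-of-ratios scaling.

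Relatives of the 5 genes and known partners of their products were taken as lists of 53 further genes, of which 27 could be tested. With LPS 12 of the 27 fell and 15 rose, against 54.7% and 32.9% of all tested genes. None failed the F test, a test that most genes pass here. The 15 include Alpk2 and Cdk5r1, which could be tested only through their LPS samples. Directions hold for the deposited scaling and were checked under 2 others, equal totals, which puts the median log2 change of all tested genes with LPS at -0.91 to -0.73, and median-of-ratios, which puts it at -0.06 to -0.01. Taking the lists and the 10 neighbours as 37 genes, 20 fell and 16 rose with the deposited scaling, 28 and 9 at equal totals, and 17 and 19 with median-of-ratios. The shares over all tested genes were not computed for the 2 other scalings, so these counts have no background there.

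Among the 14 other organic anion transporter genes, 12 were too low to test, and both tested ones rose with LPS. Slco3a1 went from 108 ± 22.3 normalised read counts to 158, 1076, 11379 and 18967 at the 4 times (7.40 ± 0.31 at 4 h, adjusted p = 7.75e-12 by limma). Slco4a1 rose from 11 to 155 at 1 h and was back at 8.67 at 4 h. So the RNA of the Slco family members that could be measured moved in opposite directions, down for Slco2b1 and up for Slco3a1 and Slco4a1. With IL-4 Slco3a1 was not called (adjusted p = 0.384) without the replicate block and was called with it (0.0319), and Slco4a1 fell (-1.95, adjusted p = 0.0463).

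Fam214b, the only relative of Fam214a in the table, went from 59 to 131 at 1 h of LPS (1.14 ± 0.20) and was at 43.3 at 4 h, and its direction turned at equal totals. With IL-4 it did not pass (adjusted p = 0.0843) without the block and did with it (0.0379). In the synaptogyrin and synaptophysin family 2 of 7 further genes could be tested. Syngr2, the widely expressed synaptogyrin, held 50 in untreated cells and 72.7 after 4 h of LPS (0.51 ± 0.23, a direction that turned at equal totals), and rose by 0.99 with IL-4 (adjusted p = 0.000123). Sypl fell by 1.09 at 0.5 h of LPS and rose by 1.17 at 1 h of IL-4.

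Of the 5 other alpha-kinase genes, 3 were tested and none fell with LPS at the deposited scaling, where 54.7% of all tested genes fell. Alpk1, a sensor of bacterial sugar metabolites, went from 504 to 3994 normalised read counts at 4 h (2.98 ± 0.13), and Alpk2 from 0.333 to 24.3. Alpk2 reached the filter for testing only through its LPS samples, so a fall could not have been called for it. Trpm7, a channel with a kinase domain, changed by 0.43 and turned at equal totals.

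The substrate and the regulators of the Eef2k product moved in both directions, with 9 of 16 tested genes falling and 7 rising under LPS, against 54.7% and 32.9% of tested genes. The substrate gene Eef2 was listed at 0 in every sample, although every cell uses it, so no level is available for it. Prkag2, a subunit of AMP-activated kinase, which activates Eef2k, fell from 761 ± 63.5 normalised read counts to 37 at 2 h and to 12.3 at 4 h (-5.83 ± 0.13, adjusted p = 2.16e-14 by limma). Prkag1 fell by 1.58, and Calm2, a calmodulin gene, fell by 2.43. Among kinases that inhibit Eef2k, Rps6ka1 fell by 2.16 and Rps6ka3 rose by 1.02. Mapkapk2, a p38 effector, rose from 654 to 22020 at 0.5 h (5.00 ± 0.27). Btrc, which encodes the ubiquitin ligase subunit that targets Eef2k, fell by 1.55 at 1 h. The direction of Prkaa1, Prkab1, Prkab2, Mtor and Rptor turned under at least 1 scaling. With IL-4 9 of the 16 passed, against 40.3% of tested genes, and 5 of them fell, against 20.9%, with Rps6ka3 at -0.91 and Mtor at 0.56 among those called.

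Of the genes around Aatk, its relative Lmtk2 fell by 1.41 at 4 h of LPS (from 71.3 to 26.3 normalised read counts). Cdk5 fell by 1.32, while the Cdk5 activator gene Cdk5r1 rose from 4 to 46 at 1 h and returned to 3 at 4 h. Cdk5r1 too reached the filter for testing only through its LPS samples. With IL-4 none of the 3 passed (adjusted p = 0.116, 0.568 and 0.0528), and Cdk5r1 passed with the block (0.0191).

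**Figure D4:**
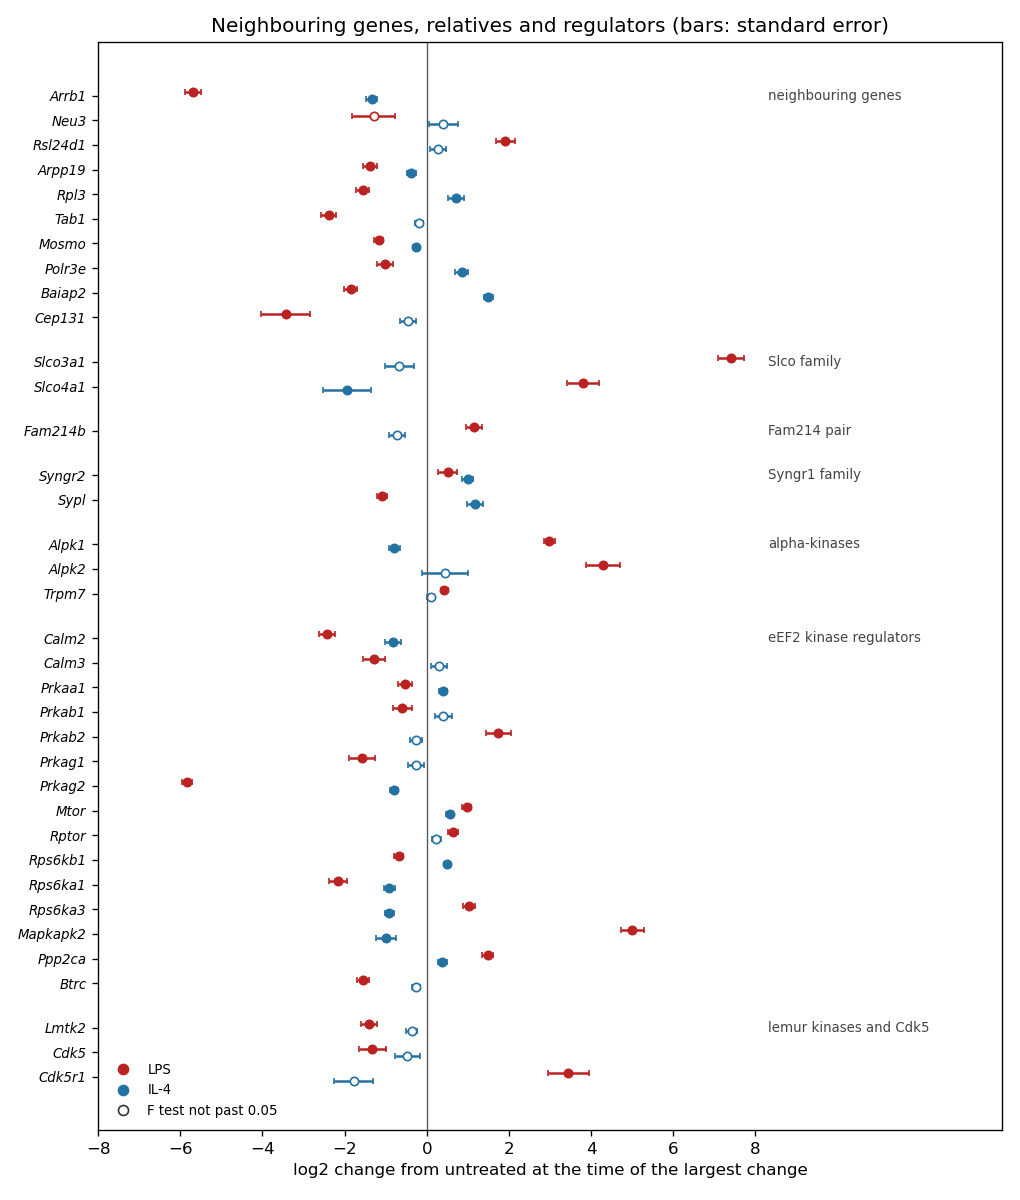
Log2 change from untreated at the time of the largest change, with its standard error, for the 10 neighbouring genes and 26 of the 27 tested relatives and regulators. Red is LPS, blue is IL-4, and open points did not pass the F test. Arrb1 and Prkag2 lie below -5 with LPS and Slco3a1 above 7, and the LPS direction of Fam214b, Syngr2, Trpm7, Prkaa1, Prkab1, Prkab2, Mtor, Rptor, Rsl24d1 and Mosmo turns under another scaling.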

How the data were processed

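Chromatin-associated RNA was measured in 27 samples. The authors made Smart-seq2 libraries with random primers, sequenced them single-end on a NextSeq 500, aligned reads with TopHat2 2.1.1 (per the labels) to mm10, removed reads with several hits or in blacklisted regions with bedtools 2.29.2, counted reads per RefSeq gene and scaled libraries on invariant genes. Whether counting used strand is not given in the sources used here. What was deposited are these normalised read counts after rounding, and they were treated as a score rather than raw counts. Depth per sample is unknown, and all errors come from the spread between replicates.

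A gene was tested where 3 or more samples held a value of 10 or more. Tests were run in limma (version 3.58.1, R 4.3.3) on log2(value + 1) (mean-variance trend, two-sided, Benjamini-Hochberg adjustment over 13901 genes, threshold 0.05). Each course was fitted with its 15 samples. Changes on this scale understate those of low genes. The impulse model of the study was not run. The members and lists were chosen with earlier results of these data known. Named genes were the members, genes overlapping them, the nearest tested protein-coding gene on either side, the 3 genes of most alike pattern and the listed relatives and partners, of which 1 is counted but not reported by name here. Same-numbered samples deviated together in every IL-4 group (correlations with the untreated sample of the same number from 0.207 to 0.680 over genes), so blocked values are given where they change a call. The fit of the IL-4 course was tested on simulated data in which replicates were independent, and the LPS course was not simulated. Figures were drawn with matplotlib. Promoter and microRNA sequences are RefSeq's on GRCm38.p6, and all 5 promoters were matched.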

Additional observations from a re-analysis of the deposited data

Results flagged for a closer look

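Between neighbouring times of IL-4, 5 steps of 3 of the 5 genes passed the test of the step itself (limma, adjusted over all tested genes), which uses no untreated sample in the contrast. Slco2b1 fell by 1.05 on the log2 scale from 0.5 to 1 h (-1.05, adjusted p = 0.0129, 23.9% of untreated left at 1 h) and rose by 1.45 from 1 to 2 h (adjusted p = 0.00118). Fam214a changed by -0.78 from 0.5 to 1 h (adjusted p = 0.0183). Eef2k changed by 0.63 from 0.5 to 1 h (adjusted p = 0.0369) and by -0.69 from 2 to 4 h (adjusted p = 0.0324). All 5 were lost without replicate 2 and without replicate 3, and all 5 were kept with the replicate block and without replicate 1. Groups of 3 samples were not searched for samples that stand apart.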

How the results depend on the processing

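The values of the 5 genes were recomputed under up to 12 alternatives. Of 300 recomputed single contrasts, 251 kept their direction and their side of the threshold, 28 lost and 18 gained a call, and 3 changed sign. Over the leave-one-out fits, which were run without each replicate number in turn, the IL-4 genes called ranged from 2169 to 6546 (5606 with all samples), the members called from 2 to 4, the called steps from 0 to 7, Syngr1 at 2 h from -1.63 to -1.21 and Eef2k at 2 h from 0.35 to 0.51. The 3 sign changes were of uncalled values near 0, all without 1 replicate: Aatk at 0.5 h of IL-4 (-0.049 to 0.0091), the Slco2b1 step from 2 to 4 h (-0.10 to 0.059) and the Eef2k step from 1 to 2 h (-0.081 to 0.18). With replicates 2 and 3 averaged 2503 genes and 2 members were called, with Syngr1 at -1.39 and Eef2k at 0.42. Fewer samples enter these fits. Syngr1 (-1.47, adjusted p = 0.0751) was lost with no filter, where more genes were tested, and Eef2k (0.45, adjusted p = 0.427) in one fit of all 27 samples, and the cause was not tested. With the replicate block Aatk passed (-0.47, adjusted p = 0.00737) and 7409 genes were called. Same-numbered samples of the LPS course also deviated together (correlations from 0.0897 to 0.596). The main fits of both courses were unpaired. The LPS changes of the 5 genes are the same with the block, under which 21 of the 37 listed and neighbouring genes fell in place of 20. Not every sample correlated best with its own number in either course. The largest LPS changes moved with the pseudocount, as its place in the ratio requires at such low values. At 0.5 they were -8.89 for Slco2b1 and -7.90 for Fam214a, and at 8 they were -5.39 for Slco2b1, -5.91 for Fam214a, -5.00 for Syngr1, -3.95 for Eef2k and -3.83 for Aatk. For Fam214a the change was -7.44 under median-of-ratios and -8.13 at equal totals. At equal totals 9 of the 37 listed and neighbouring genes rose with LPS in place of 16, and over the leave-one-out fits 17 to 21 fell and 13 to 16 rose. Depth limits what can be said under 3 normalised read counts.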
